A study of Mus musculus with 43 samples.

Results

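The FKBP immunophilins are a family of peptidyl-prolyl isomerases, enzymes that turn the bond before a proline and so help proteins fold. Some bind the immunosuppressants FK506 and rapamycin, from which the family has its name. The 10 family genes described here, of 55416 genes counted, were Fkbp1a, Fkbp2, Fkbp3, Fkbp4, Fkbp5, Fkbp8, Fkbp9, Fkbp10, Fkbp11 and Fkbp14. They were taken up because Fkbp10 was higher in oligodendrocyte precursor cells (OPCs) of Rag2-/- mice, and the question was whether its relatives were too. The family was thus chosen by the counts of Fkbp10 in OPC libraries of the 2 genotypes, and those values are given as a description without a test.

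The 43 libraries each came from 1 glial cell type of 1 mouse, purified by immunopanning, in which cells bind to antibody-coated plates. The mice were 3-month-old littermates of both sexes from Rag2+/- parents, and the tissue was cerebral cortex. Rag2-/- mice make no mature T or B lymphocytes, and their immunocompetent littermate controls were Rag2+/- or Rag2+/+, with 4 of the 6 controls Rag2+/-. OPCs came from 6 control and 5 Rag2-/- mice, oligodendrocytes from 4 and 4, and astrocytes and microglia from 6 and 6 each. The replicate number is that of the littermate pair, and libraries of different cell types with the same genotype and number were taken as 1 mouse.

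Library totals were 6499417 to 23118497 gene counts, with a median of 10447042. Mitochondrially encoded genes took 6.75% to 60.1% of them, the most in oligodendrocytes. The markers of each cell type were high in its own libraries, but also present in others. OPC markers were at a median of 23.5% to 54.9% of their level in control OPCs in oligodendrocyte libraries, and oligodendrocyte markers at 10.3% to 29.9% of theirs in astrocyte libraries. Their part in the differences between cell types was not tested. Astrocyte markers were present in OPC libraries, at a median of 6.10% to 15.7% of their level in control astrocytes in control OPCs and 9.74% to 23.5% in Rag2-/- OPCs. The libraries of a cell type were sequenced together, so differences between cell types cannot be told apart from differences between sequencing lanes or runs where these were not shared. In bulk samples, fewer cells of a type and less RNA per cell cannot be told apart either.

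FKBP proteins work in different parts of the cell. FKBP12, the product of Fkbp1a, is the small cytosolic member that binds rapamycin and the calcineurin inhibitor FK506, and it also sits on calcium release channels. Fkbp3 is nuclear. Fkbp4 and Fkbp5 are co-chaperones of Hsp90 that act on steroid receptors, and Fkbp5 is itself a known target gene of the glucocorticoid receptor. Fkbp8 is anchored in the outer mitochondrial membrane. Fkbp2, Fkbp9, Fkbp10, Fkbp11 and Fkbp14 belong to the endoplasmic reticulum, where Fkbp10 and Fkbp14 assist the folding of procollagen.

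Fkbp10 (chromosome 11, 100305808 to 100315669, plus strand, GRCm39) was low in control OPCs. Its normalized CPM (read pairs per 1000000 counted on genes, after TMM scaling) there had a lowest value of 0.165, a median of 1.23 and a highest of 1.48, from 2 to 22 read pairs per library. In the Rag2-/- OPCs of replicates 1, 2, 3, 4 and 6 it was at 7.92, 16.1, 4.35, 2.48 and 7.21 CPM, from 29 to 244 read pairs. Every Rag2-/- library lay above every control library. The means were 0.994 ± 0.536 CPM (SD, n = 6) in controls and 7.61 ± 5.23 (SD, n = 5) in Rag2-/-, a ratio of 7.66, and the fitted log2 fold change was 2.75 (SE 0.50). Replicate 2 was the highest, and without it the ratio of means was 5.52. Astrocytes, where the gene was most abundant, held 25.4 ± 2.49 CPM (SD, n = 6) in controls and 23.996 ± 7.02 (SD, n = 6) in Rag2-/-, a log2 fold change of -0.15 with a 95% interval of -0.51 to 0.22. In oligodendrocytes and microglia it was under the filter on low counts, with 0 to 48 and 0 to 14 read pairs per library.

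**Figure D1:**
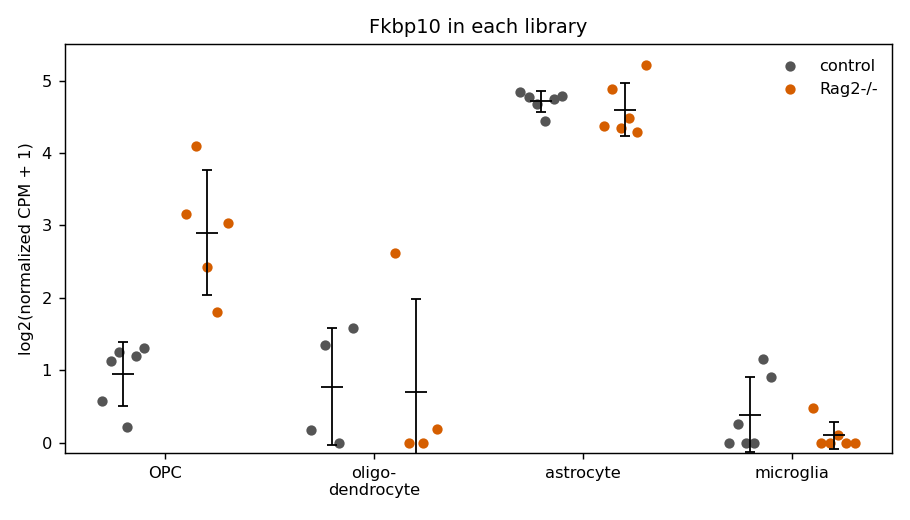
Fkbp10 in each of the 43 libraries, as log2 of normalized CPM plus 1, by cell type and genotype; points are libraries and bars give the mean and SD. The 5 Rag2-/- OPC libraries (2.48 to 16.1 CPM) lie above the 6 control OPC libraries, and astrocytes of both genotypes lie above all OPC libraries.

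Astrocytes carried the most Fkbp10, so its level in OPC libraries was set beside the astrocyte markers in the same libraries. As a share of its mean in control astrocytes, Fkbp10 was at 0.650% to 5.82% in control OPCs and at 9.78% to 63.5% in Rag2-/- OPCs. The astrocyte marker share was 17.7% in the Rag2-/- library with Fkbp10 at 63.5%, and 23.5% in the one with Fkbp10 at 31.2%. In replicate 4 of the Rag2-/- OPCs the order was the other way, with Fkbp10 at 9.78% and the markers at 14.2%. All 8 astrocyte markers were detected in every OPC library, and their summed level was 2344 to 3375 CPM in controls and 2706 to 6283 in Rag2-/-. Mural and fibroblast markers summed to 121 to 351 CPM in control OPCs and 141 to 516 in Rag2-/-, with 11 or 12 of 12 detected. This sum joins 2 cell types. Past the filter, log2 fold changes ran from 0.17 (Vtn) to 1.19 (Myh11) for mural genes. For fibroblast genes they ran from -0.29 (Dcn) to 0.12 (Lum), and none of either kind was called. Endothelial markers summed to 26.1 to 65.5 and 32.2 to 112 CPM, with 7 or 8 of 8 detected. The part of these cells in the Fkbp10 difference was not tested.

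**Figure D2:**
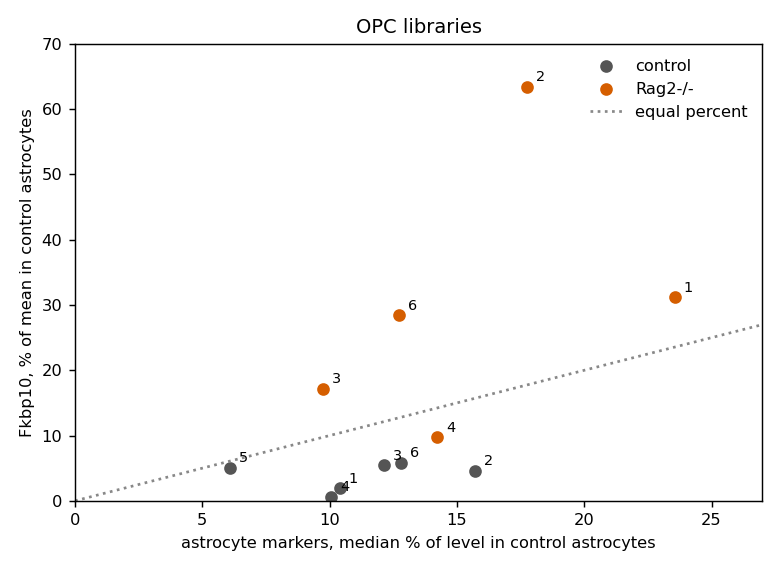
Each point is 1 OPC library, numbered by littermate pair, with the astrocyte markers' median percent of their level in control astrocytes on the horizontal axis and Fkbp10 as percent of its mean in control astrocytes on the vertical axis. In 4 of the 5 Rag2-/- libraries Fkbp10 lies above the dotted line of equal percent, and all 6 control libraries lie below it.

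Fkbp10 shares 25.5% of its exonic bases with genes on the opposite strand, P3h4 and Nt5c3b. P3h4, which belongs to the prolyl 3-hydroxylase family of collagen partners, was at 8.21 ± 3.44 CPM (SD, n = 6) in control and 10.97 ± 2.06 (SD, n = 5) in Rag2-/- OPCs. Nt5c3b was at 12.1 ± 2.64 and 11.9 ± 3.01 CPM in the same groups. Reads in the shared bases could not be assigned to a strand from the sources used here.

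None of the relatives passed the test in OPCs. Of the 9 other family genes, 8 had enough counts for the test and 0 were called by genotype, where 0.00592% of all 16882 genes tested were called (1 gene, lower in Rag2-/-). The smallest unadjusted p among these 8 was 0.182, for Fkbp5, and 0 of the 8 had an unadjusted p under 0.05. DESeq2 on all genes also called 0 of them. The median log2 fold change over the 8 genes was -0.01, and that over all genes was -0.01.

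The cytosolic and nuclear members were close between genotypes in OPCs. Fkbp1a had a lowest value of 82.2 CPM, a median of 92.7 and a highest of 109 in controls, and 91.7, 99.6 and 118 in Rag2-/-. The groups overlapped, and the log2 fold change was 0.08 with a 95% interval of -0.16 to 0.32 (edgeR adjusted p = 0.9998). Fkbp3 was at 16.5 ± 3.19 CPM (SD, n = 6) in controls and 17.4 ± 3.62 (SD, n = 5) in Rag2-/-. Its interval ran from -0.39 to 0.47.

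The co-chaperones of Hsp90 gave no call either. Fkbp4 was at 81.4 ± 22.7 CPM (SD, n = 6) and 84.2 ± 15.2 (SD, n = 5), with an interval of -0.31 to 0.40 on the log2 scale. Fkbp5 was at 12.6 ± 4.43 and 9.65 ± 2.41 CPM, and its log2 fold change of -0.37 had an interval of -0.93 to 0.19. The mitochondrial Fkbp8 was at 37.1 ± 5.73 and 34.7 ± 6.79 CPM, with an interval of -0.42 to 0.21.

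The endoplasmic reticulum members are those closest to Fkbp10 in location. Fkbp14, the other procollagen chaperone, was at 10.7 ± 2.96 CPM (SD, n = 6) in controls and 11.01 ± 2.35 (SD, n = 5) in Rag2-/- OPCs, with a log2 fold change of 0.01 and an interval of -0.53 to 0.56. Fkbp9 was at 33.5 ± 6.09 and 33.0 ± 5.01 CPM (interval -0.37 to 0.30), and Fkbp2 at 26.1 ± 5.87 and 23.6 ± 6.68 CPM (interval -0.61 to 0.29). The highest upper bound among the 8 relatives was that of Fkbp14, a fold of 1.47. The groups of each of these genes overlapped.

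Fkbp11, a member abundant in secretory cells, was too low to pass the filter. In control OPCs it had 0 read pairs in 3 of 6 libraries and 4 or 5 in the others, up to 0.534 CPM. In Rag2-/- OPCs of replicates 1, 2, 3, 4 and 6 it had 23, 22, 2, 7 and 36 read pairs, at 1.27, 1.45, 0.118, 0.599 and 1.33 CPM. The groups overlapped because replicate 3 was lower than 3 of the controls. A fit of all genes gave it a log2 fold change of 2.15 (SE 1.02), with an unadjusted p of 0.0345 and an edgeR adjusted p of 0.791 over 33850 genes. B and plasma cell markers in these libraries summed to 0 to 1.01 CPM in controls and 0 to 0.887 in Rag2-/-.

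**Figure D3:**
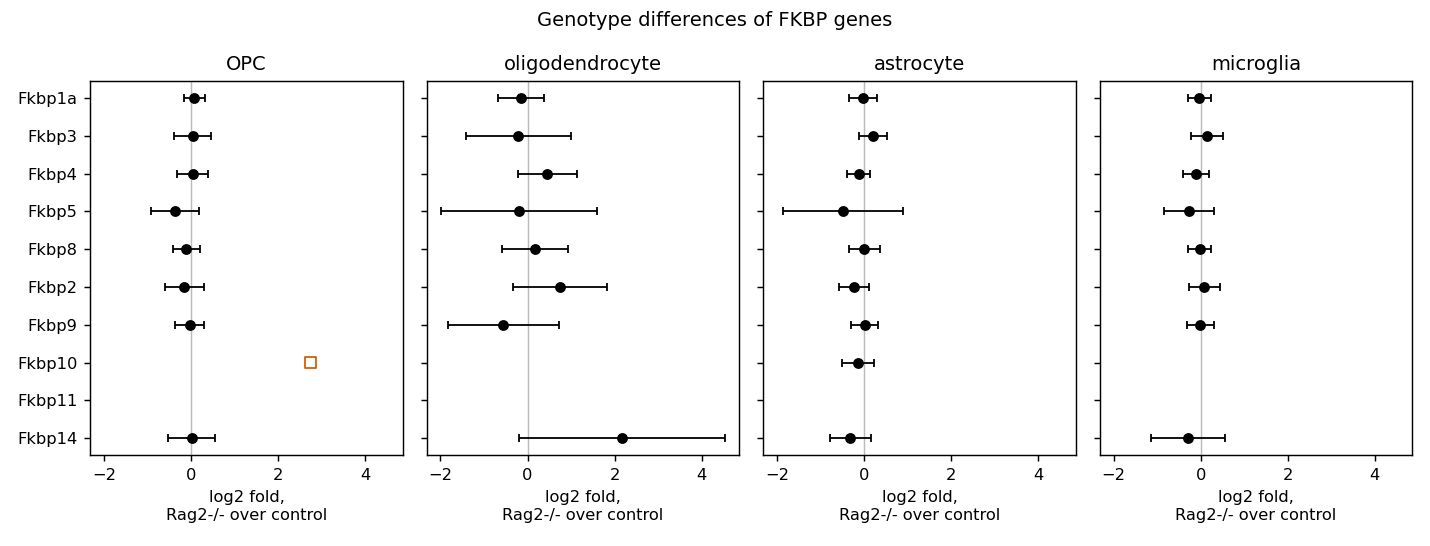
Log2 fold change of each family gene, Rag2-/- over control, in the 4 cell types, with 95% intervals; the open square is Fkbp10 in OPCs (2.75), shown without an interval because it chose the family, and genes under the filter on low counts are left out. Every interval drawn includes 0.

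The other cell types gave no called member by genotype. Of the 8, 9 and 8 members past the filter in oligodendrocytes, astrocytes and microglia, 0 were called, where 0%, 0.00679% and 0.00667% of all genes tested were. Besides Fkbp10 in OPCs, which chose the family, the genotype groups of every member overlapped in each cell type. Of all genes tested, 0.403% had groups without overlap in OPCs, 2.31% in oligodendrocytes, 0.122% in astrocytes and 0.133% in microglia.

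Among members past the filter, the largest fitted difference outside OPCs was that of Fkbp14 in oligodendrocytes. It passed the filter through the Rag2-/- libraries, where it was higher, as the controls held 63 read pairs in total. Control replicates 1, 3, 5 and 6 were at 5.47, 1.68, 0.379 and 0.612 CPM, and the Rag2-/- replicates of the same pairs at 9.21, 4.73, 7.07 and 7.55. The Rag2-/- mouse was the higher in 4 of 4 pairs. That is a description only, because the gene passed the filter through this group, and the count was not made for all genes. In pair 6 the control was male and the Rag2-/- mouse female. Control replicate 1 lay above Rag2-/- replicate 3, so the groups overlapped. The log2 fold change was 2.17 (SE 1.08) with an interval of -0.19 to 4.54 and an edgeR adjusted p of 0.998, from 2 to 44 read pairs in the controls and 37 to 86 in Rag2-/-. It was 1.40 without control replicate 5 and 3.12 without control replicate 1, and 2.83 without Rag2-/- replicate 3. Fkbp14 was also high in OPCs and astrocytes, so the markers of both were read in the same order of libraries. OPC markers had a median level relative to control OPCs of 27.3%, 42.3%, 29.3% and 23.5% in controls. In Rag2-/- it was 30.7%, 54.9%, 39.01% and 26.2%. All 7 were detected, at a summed 496 to 1082 CPM in controls and 664 to 1153 in Rag2-/-. Astrocyte markers, relative to control astrocytes, were at 4.12%, 3.33%, 6.49% and 11.7% in controls and 6.02%, 3.27%, 8.79% and 5.99% in Rag2-/-. The part of either cell type in the Fkbp14 difference was not tested.

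Members under the filter had larger fitted values with no call. From the fit of all genes, Fkbp11 differed by 5.34 (SE 2.38, unadjusted p = 0.0246, edgeR adjusted p = 0.913) in oligodendrocytes and by -2.29 (SE 1.15, unadjusted p = 0.0467, adjusted p = 0.905) in astrocytes. Fkbp10 differed by -2.25 (SE 1.18, adjusted p = 0.925) in microglia. Read pairs were 0 to 34, 0 to 10 and 0 to 14 per library in these comparisons.

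A test of whether the genotype effect differed between cell types, which left out Fkbp10, called 0 of 9 members, where 0.248% of 21368 genes were called. The smallest adjusted p values were 0.194 for Fkbp14 and 0.216 for Fkbp11. Without the filter Fkbp11 passed, with an adjusted p of 0.0154, in a fit that called 1011 of 39266 genes. Sex gave 0 called members in any cell type. The share of all genes called by sex was 0.0296% in OPCs, 0.0362% in oligodendrocytes, 0.0407% in astrocytes and 0.0467% in microglia.

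The partners of the family were taken as lists. In OPCs 0 genes of any list were called by genotype, and the same held for the other cell types and for sex. Of the 18 collagen maturation partners of Fkbp10, 17 passed the filter and 10 had a positive log2 fold change, with a median of 0.09 against -0.01 over all genes. Serpinh1, the collagen chaperone HSP47, had the smallest p among the genes of this list past the filter. It was at 8.82 ± 1.18 CPM (SD, n = 6) in controls and 14.3 ± 5.84 (SD, n = 5) in Rag2-/- OPCs, a log2 fold change of 0.69 (SE 0.26, edgeR adjusted p = 0.9998). Control astrocytes held 27.7 ± 4.46 CPM of Serpinh1 (SD, n = 6), and the part of astrocyte RNA in its OPC difference was not tested. P4ha3, a prolyl 4-hydroxylase gene under the filter that is named here after its values were seen, differed by 2.23 (SE 0.85, adjusted p = 0.520) in the fit of all genes.

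The partners of the other members follow by list. Of the 13 Hsp90 and steroid receptor partners 13 passed the filter and 7 were positive (median 0.01), with the smallest p for the ubiquitin ligase gene Stub1 (log2 fold change 0.68, SE 0.45). Of the 12 glucocorticoid receptor target genes 11 passed and 7 were positive (median 0.08), led by the phosphatase gene Dusp1 (0.36, SE 0.13), at 149 ± 23.5 CPM in controls and 193 ± 30.0 in Rag2-/-. Dusp1 was at 544 ± 62.3 CPM in control astrocytes and higher in control microglia, at 1044 ± 105 (SD, n = 6 for each). The part of RNA from other cell types in its OPC difference was not tested. Of the 13 FKBP12 partners 6 were positive (median -0.07), led by the calcium channel gene Ryr2 (0.30, SE 0.16). The 14 endoplasmic reticulum folding genes had 5 positive members (median -0.01), led by the chaperone gene Canx (-0.13, SE 0.10), and the 5 Fkbp8 partners had 3 (median 0.01), led by Bcl2l1 (-0.33, SE 0.28). Of the 7 other FKBP genes 5 passed and 3 were positive (median 0.02), led by Fkbp7 (-0.84, SE 0.46). Each of these leading genes had an adjusted p of 0.9998.

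Members also differed between cell types, as did a large share of all genes. Among controls, 6 of the 10 members were called for astrocytes against oligodendrocytes (36.2% of all genes were called). For microglia, 3 of 10 were called against oligodendrocytes (56.4%) and 6 of 10 against astrocytes (58.7%). Comparisons with OPCs were counted over the 9 members other than Fkbp10, whose OPC libraries chose the family. Of these 9, 2 were called for oligodendrocytes against OPCs (26.5%), 5 for microglia (58.2%) and 1 for astrocytes (29.9%). Fkbp8 was called in 0 of the 6 pairs, at 37.1 ± 5.73, 41.5 ± 13.1, 38.1 ± 3.22 and 43.9 ± 8.66 CPM in OPCs, oligodendrocytes, astrocytes and microglia.

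Fkbp1a was highest in oligodendrocytes. Its control libraries of replicates 1, 3, 5 and 6 were at 237, 291, 273 and 309 CPM, a mean of 277 ± 30.9 (SD, n = 4). Control OPCs were at 94.1 ± 10.8 CPM, microglia at 93.9 ± 14.3 and astrocytes at 90.6 ± 20.5 (n = 6 for each). Oligodendrocytes lay above each of these (log2 fold change 1.56, SE 0.17, against OPCs, edgeR adjusted p = 8.56e-10), and the other 3 were not called against each other. With total gene counts in place of TMM these differences shrank, to 0.50 against OPCs (adjusted p = 0.0156), with astrocytes at -0.95 and microglia at -0.66 relative to oligodendrocytes. In Fkbp1a, 9.19% of the 50-base windows of the transcript are repeated base for base at another place in the genome, at Fkbp1a-ps1 and 3 other annotated genes, and reads from these windows are not unique. No window of the other 9 members has such a copy.

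Fkbp5 had the widest range of the co-chaperones. Its control means were 44.5 ± 26.9 CPM in microglia (n = 6), 12.6 ± 4.43 in OPCs (n = 6), 7.99 ± 4.03 in oligodendrocytes (n = 4) and 1.69 ± 0.983 in astrocytes (n = 6, all SD). Microglia lay above OPCs (log2 fold change 1.83, SE 0.42, edgeR adjusted p = 0.000273) and above astrocytes (4.71, SE 0.50, adjusted p = 6.43e-11). OPCs and oligodendrocytes were not called against each other (adjusted p = 0.292). The microglial libraries ranged from 22.7 to 90.6 CPM. Fkbp4 was lower in microglia than in OPCs (-0.56, SE 0.20, adjusted p = 0.0136), a call lost without control mouse 1 (adjusted p = 0.127) or mouse 5 (0.0506). With the mouse as a block in place of sex, Fkbp4 also passed for oligodendrocytes against OPCs (adjusted p = 0.0392) and microglia against astrocytes (0.0451).

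The endoplasmic reticulum members did not share 1 pattern. Fkbp10 was highest in astrocytes, above oligodendrocytes by a log2 fold change of 4.74 (SE 0.97, edgeR adjusted p = 0.000143) and above microglia, whose own difference from astrocytes was -5.96 (SE 0.86, adjusted p = 1.21e-07). The control means outside astrocytes were 0.994 CPM in OPCs, 0.915 in oligodendrocytes and 0.384 in microglia. The comparison with OPCs rests on libraries that chose the family and is given as values only, a log2 difference from astrocytes of 4.66 among controls and 1.66 among Rag2-/- libraries. Fkbp14 was high in both OPCs (10.7 ± 2.96 CPM) and astrocytes (11.4 ± 1.77) and lower in oligodendrocytes (2.04 ± 2.36) and microglia (2.50 ± 0.896). Astrocytes and OPCs were not called against each other, nor were oligodendrocytes and microglia. Fkbp14 lay lower in oligodendrocytes than in OPCs (-2.36, SE 0.45, adjusted p = 8.62e-05), a call that did not hold between the Rag2-/- groups (-0.62, adjusted p = 0.274).

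Fkbp9 was at 41.4 ± 5.89 CPM in astrocytes, 33.5 ± 6.09 in OPCs, 21.2 ± 12.0 in oligodendrocytes and 17.4 ± 2.41 in microglia. Microglia lay below astrocytes (-1.25, SE 0.24, edgeR adjusted p = 2.56e-05) and OPCs (-0.95, SE 0.24, adjusted p = 0.00089). Fkbp2 was highest in microglia, at 41.8 ± 10.7 CPM against 24.02 to 26.1 in the other cell types, and was called in each comparison with microglia (edgeR adjusted p = 0.0118 against OPCs). Against OPCs the call was lost with total gene counts (adjusted p = 0.0769) or with mitochondrially encoded genes left out of library size (0.461), and against oligodendrocytes it was lost without control mouse 5 (0.0913). Fkbp2 shares 28.9% of its exonic bases with Ppp1r14b on the opposite strand. Fkbp3 was lower in microglia than in astrocytes (-0.77, SE 0.21, adjusted p = 0.00143).

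Fkbp11 had 0 read pairs in all 4 control oligodendrocyte libraries, which allows up to 0.109 CPM over the group. Fkbp11 passed the filter in the joint fit, which takes in libraries of both genotypes, but not in the fit of any single cell type. Its highest counts were in Rag2-/- libraries, with up to 36 read pairs in OPCs, 34 in oligodendrocytes and 26 in microglia. Control astrocytes were at 0.652 ± 0.428 CPM (SD, n = 6), with 0 read pairs in 1 library and at most 10 in the others. Their mean was 6.00-fold that limit, without regard to their spread, and the difference was called (edgeR adjusted p = 0.0280). With the mouse as a block this call was lost (adjusted p = 0.0603), as it was without control mouse 3, 5 or 6.

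**Figure D4:**
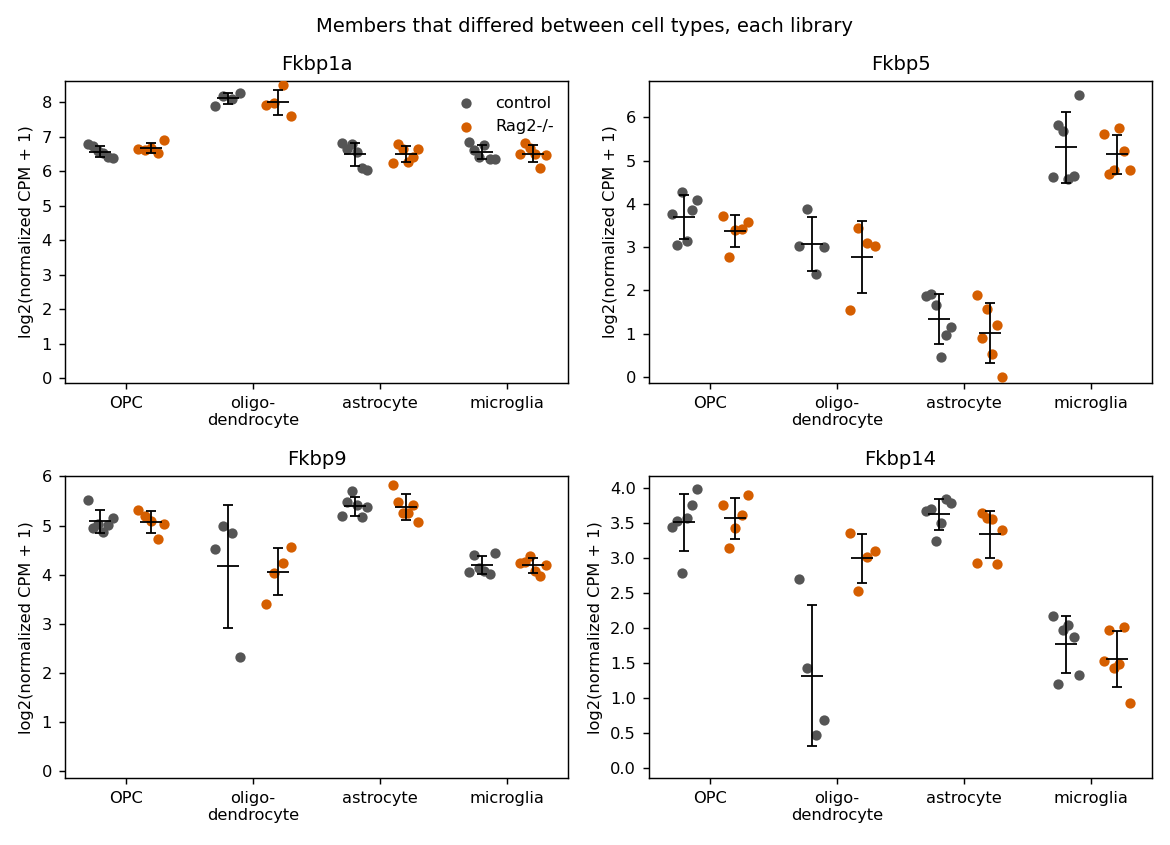
Fkbp1a, Fkbp5, Fkbp9 and Fkbp14 in each library, as log2 of normalized CPM plus 1, by cell type and genotype; points are libraries and bars give the mean and SD. Fkbp1a is highest in oligodendrocytes (277 CPM in controls), Fkbp5 in microglia (44.5), and Fkbp14 is high in both OPCs (10.7) and astrocytes (11.4).

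Per kilobase of the canonical transcript, Fkbp1a was the most abundant member in control OPCs, at 52.3 ± 6.01 CPM per kb (SD, n = 6). Fkbp2 (39.1 ± 8.79) and Fkbp4 (36.4 ± 10.2) followed and differed by less than their spread. Fkbp8 (19.4 ± 3.00) and Fkbp3 (16.1 ± 3.12) came next, then Fkbp9 (10.8 ± 1.97), Fkbp14 (3.87 ± 1.07) and Fkbp5 (3.52 ± 1.24), of which the last pair differed by less than the spread. Fkbp10 (0.356 ± 0.192) and Fkbp11 (0.263 ± 0.309) were the lowest. With all exonic bases as the length instead, chosen after seeing the data, Fkbp2 came first and Fkbp1a fell to place 3.

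**Figure D5:**
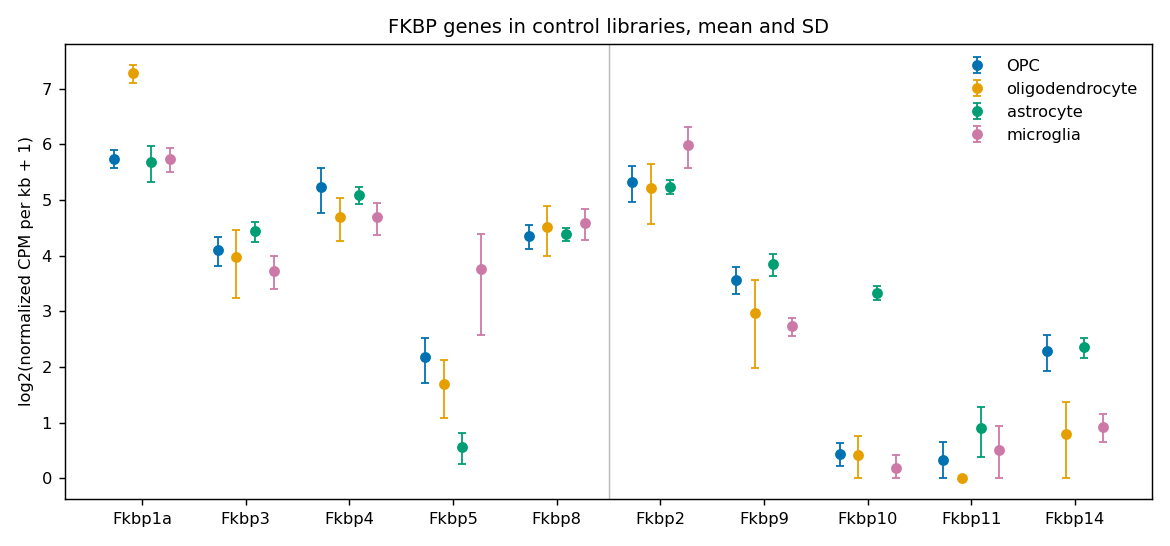
Mean and SD of each family gene in control libraries, as log2 of normalized CPM per kb of canonical transcript plus 1, with cytosolic, nuclear and mitochondrial members left of the line and endoplasmic reticulum members right of it. Fkbp10 in astrocytes (9.07 CPM per kb) stands above its level in OPCs (0.356).

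The genes whose pattern over the 8 group means was nearest to a member, by root mean square difference of centred log2 CPM, were Kirrel2 for Fkbp10 (0.25), Ptbp3 for Fkbp5 (0.18), Pcdhga5 for Fkbp14 (0.20) and Mphosph8 for Fkbp4 (0.07). The others were nearest to predicted genes or pseudogenes. Over the 11 OPC libraries, Fkbp10 was nearest to Ly6a (0.54), Cd93 (0.62), Otx1 (0.64), Gm49268 (0.67) and Grin2c (0.68). No other family gene was among these 5. The matches of Fkbp10, Kirrel2 included, use the OPC values that chose the family. Genes high in the same Rag2-/- libraries thus come out near, and the matches do not show whether its relatives follow it.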

How the data were processed

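The authors amplified cDNA from immunopanned cells, sequenced paired reads of 50 bases with all libraries of a cell type on the same lane, aligned them with STAR 2.7.8a to GRCm39 and counted them on genes with HTSeq. The deposited values are whole-number counts per gene, with no correction for depth or length; whether counting used strand is not given in the sources used here. Per library, 33.5% to 52.0% were not assigned to a gene and were left out. This share pools all classes of unassigned reads, so it is not only reads that lay outside genes.

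Here, genes were kept by edgeR's filterByExpr (minimum count 10, minimum total 15) and scaled by TMM, and edgeR's quasi-likelihood test gave every p-value, with Benjamini-Hochberg adjustment over all genes tested and a threshold of 0.05. Genotype and sex were tested within each cell type in a fit with terms for both. Cell types were compared among controls in a joint fit of the 43 libraries with 8 groups and sex, which also tested whether the genotype effect differed between cell types. Normalized CPM are counts per 1000000 after TMM over all 43 libraries. Versions were R 4.3.3, edgeR 4.0.16, DESeq2 1.42.0, Python 3.11.15, numpy 2.4.6, pandas 2.3.3 and matplotlib 3.10.9. The fits were tested on simulated data. A first criterion for the joint fit, on the number of changed genes recovered, was not met and was replaced after that was seen by limits on bias, on false calls and on larger changes in genes of low dispersion. Many 2-fold differences put into those data were not recovered, so a gene that was not called may still differ.

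The members and the gene lists were chosen with earlier results of these data known. Genes named besides the members were the gene of each partner list with the smallest p in the OPC genotype comparison, genes of a partner list past the threshold, marker genes and the genes nearest to a member in pattern. Alternatives were DESeq2 size factors, other filters, a DESeq2 test on all genes, other library sizes, other covariates, heterozygous controls alone, and each library left out. Littermate numbers come from the labels and pair the samples. Deviations from the group means correlated within pairs by a mean of 0.0889 in OPCs, 0.111 in oligodendrocytes, 0.135 in astrocytes and 0.0865 in microglia. The smallest chi-square between libraries of a group was 8.18 per gene, so libraries of a group were not copies and each counted as 1 sample. It does not cover libraries of different cell types, which in part came from the same mice. The joint fit treated these as separate, except in the alternative with the mouse as a block. Counts carry no molecular identifiers, so limits set by a count of 0 cover counting error only. The value of 1 marker gene is not reported here.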

Additional observations from a re-analysis of the deposited data

Results flagged for a closer look

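Of 79 groups of 4 to 6 libraries examined, 5 held a library far from the others by Dixon's criterion, and chance flags about 1 in 20 groups. Fkbp3 in microglia was at 17.8 CPM in control replicate 1, where the nearest other control library was at 12.2. Fkbp4 in microglia was at 77.1 CPM in control replicate 3, against 54.3. Fkbp10 in oligodendrocytes was at 5.14 CPM in Rag2-/- replicate 1, against 0.14, and in microglia at 0.393 CPM in Rag2-/- replicate 1, against 0.0784. These Fkbp10 values came from the same mouse, whose OPC library held 7.92 CPM, below the 16.1 of Rag2-/- replicate 2. The microglial value rests on 4 read pairs and lay within the range of control microglia, which reached 1.23 CPM. Fkbp11 in oligodendrocytes was at 4.75 CPM in Rag2-/- replicate 6, against 0.766.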

How the results depend on the processing

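The count of called members by genotype (in OPCs, of the members other than Fkbp10, which was not tested there) and by sex was 0 in each cell type under all alternatives run, the replicate block (the littermate pair in place of sex) included. As reported, edgeR called by genotype 1, 0, 1 and 1 of the genes past the filter in OPCs, oligodendrocytes, astrocytes and microglia. Without the filter it called 90, 14, 30 and 9, and DESeq2, also without it, 5, 203, 1 and 3. By sex the counts in the same order were 5, 5, 6 and 7 as reported, 72, 99, 118 and 25 without the filter and 13, 434, 18 and 11 with DESeq2. With the mouse as a replicate block the test of differing genotype effects called 5 genes in place of 53. The fitted Fkbp10 log2 fold change in OPCs was 2.48 to 3.01. Between cell types, the block changed the calls of Fkbp4 and Fkbp11 given above and no other.

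Total gene counts in place of TMM moved oligodendrocytes against OPCs by -1.07 on the log2 scale for every gene and microglia against oligodendrocytes by 0.91. The called members were then 9 in place of 2 (11430 of 21368 genes in place of 5669) and 8 in place of 3 (13474 genes in place of 12058), and 2 called values had turned direction, Fkbp8 to -0.85 for the first comparison and Fkbp3 to 0.67 for the second. Leaving mitochondrially encoded genes out of library size gave 4 called members for oligodendrocytes against OPCs (7379 genes). Between the Rag2-/- groups, 1 member (Fkbp5) was called for astrocytes against OPCs (5407 genes) and 5 for microglia against oligodendrocytes (12302 genes). Values that reversed there were Fkbp11 (-2.94) and Fkbp2 (-0.71) for astrocytes against oligodendrocytes, and Fkbp14 (-1.80) and Fkbp4 (-0.50) for microglia against oligodendrocytes. Without the filter, 1 member (Fkbp11) was called in the test of differing genotype effects, with 1011 of 39266 genes. The cause was not tested.

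Depth limits Fkbp10 in control OPCs, oligodendrocytes and microglia, and Fkbp11 in all cell types, where libraries held few or 0 read pairs.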
